A study of Rattus norvegicus with 15 samples.

Results

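The 10 genes described here encode the calcium/calmodulin-dependent protein kinase CaMKII and core scaffold proteins of the postsynaptic density: 4 kinase subunit genes (Camk2a, Camk2b, Camk2d and Camk2g), 4 genes of membrane-associated guanylate kinases (Dlg1, Dlg2, Dlg3 and Dlg4) and 2 genes of their binding partners (Dlgap1 and Dlgap3). They were chosen by name, as 10 of 14497 genes that the array's annotation pairs with a single symbol. Each had 1 probe set, and all 10 passed the filter on low values, as did 11778 genes in all. RNA came from the nucleus accumbens of male Sprague-Dawley rats from a study on incubation of drug craving, in which cue-induced drug seeking grows over weeks of abstinence. The 15 arrays fell into 5 groups of 3. Group 30C had self-administered cocaine (0.75 mg/kg per infusion, paired with a light, 6 h per day for 10 days), spent 30 days in forced abstinence and then had an extinction test of cue-induced seeking. Group 30W had the same cocaine and 30 days of abstinence without the test. Groups 1C and 1W were the same with and without the test after 1 day of abstinence. Group Sal pressed for saline in place of cocaine, and the labels give it neither a withdrawal time nor a test. Rats of all 5 groups carried jugular catheters. It is not stated whether each array held RNA of 1 rat or a pool, so p-values here measure only the spread between these samples, which may be technical.

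CaMKII is a large ring-like holoenzyme assembled from subunits of the 4 genes. Calcium entering through NMDA receptors loads calmodulin, which opens the kinase, and subunits then phosphorylate each other, so that activity outlasts the calcium signal. The membrane-associated guanylate kinases hold glutamate receptors at the synapse through their PDZ domains, and Dlgap proteins link them to Shank and Homer deeper in the density. In the nucleus accumbens most neurons are inhibitory medium spiny neurons, and glutamate reaches them from cortex, amygdala, hippocampus and thalamus.

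All values are RMA log2 intensities, as the authors deposited them, so that 1 unit is 1 doubling of signal. The 14 measured markers of medium spiny neurons lay, at the median array, above 87.4% (Gpr6, an orphan receptor) to 99.6% (Penk, enkephalin) of probe sets, with the dopamine receptor Drd1 above 91.9%. The 11 measured cortical markers lay lower for the most part, from above 37.6% (Bhlhe22) to above 96.6% (Sv2b) of probe sets. Among them Slc17a7, a vesicular glutamate transporter, lay above 96.5% and ranged from 7.16 to 12.16 over the arrays. Lhx2, by contrast, ranged only from 8.94 to 9.31. Any pair of arrays correlated at 0.993 to 0.997. Arrays of one group nevertheless differed in cell type markers. The spiny neuron score, the mean deviation of 14 measured medium spiny neuron markers from their own means over the 15 arrays, was -0.46, 0.09 and 0.12 on the 30C arrays. It was 0.05, -0.05 and 0.09 on 30W, -0.02, 0.00 and 0.17 on 1C, -0.25, 0.09 and 0.27 on 1W, and -0.06, 0.10 and -0.17 on Sal arrays. These were 14 of 15 listed markers. The same score of 11 of 15 listed cortical projection neuron markers ran from -0.59 to 0.91 on 30C arrays, -0.06 to 0.16 on 30W, -0.35 to 0.38 on 1C, -0.47 to 0.11 on 1W and -1.12 to 0.64 on Sal arrays. Replicate 1 of 30C thus had both the lowest spiny neuron score and the highest cortical score of all arrays.

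The kinase subunits split into steady and variable genes. Camk2a, the alpha subunit that dominates the holoenzyme of forebrain excitatory synapses, was at 12.93, 12.96 and 12.95 on 30C arrays and 13.004, 12.97 and 12.98 on 30W arrays. It was at 12.94, 13.003 and 12.98 on 1C arrays, 12.90, 12.98 and 13.02 on 1W arrays, and 12.91, 12.96 and 13.01 on Sal arrays. Its lowest and highest arrays, both of 1W, were 1.09-fold apart. The SD of Camk2a within groups was 0.039, lower than that of all but 3.97% of genes, while the median gene had 0.087. Its probe set lay above 99.8% of probe sets. Camk2b, the beta subunit that binds actin filaments, ranged from 12.02 on 30C replicate 1 to 12.25 on 1W replicate 3, with group means of 12.11 ± 0.08 in 30C, 12.18 ± 0.02 in 30W, 12.17 ± 0.06 in 1C, 12.18 ± 0.07 in 1W and 12.17 ± 0.04 in Sal (SD, n = 3 each).

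Camk2d, the delta subunit best known from the heart, was at 9.96, 9.35 and 9.21 on 30C arrays, and so held both the highest and the lowest value of the 15 arrays within a single group. It was at 9.53, 9.56 and 9.67 on 30W, 9.68, 9.59 and 9.30 on 1C, 9.90, 9.51 and 9.33 on 1W, and 9.59, 9.50 and 9.60 on Sal arrays. Camk2g, the gamma subunit, which in mouse cortical neurons carries calmodulin to the nucleus, was at 11.02, 10.76 and 10.62 on 30C arrays and 10.79, 10.77 and 10.76 on 30W arrays. It was at 10.71, 10.67 and 10.66 on 1C, 11.08, 10.72 and 10.56 on 1W, and 10.76, 10.83 and 10.93 on Sal arrays. The first replicates of 30C and 1W were thus the highest for both genes. The SD within groups was 0.24 for Camk2d and 0.16 for Camk2g, higher than in 96.5% and 89.1% of genes.

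The guanylate kinase scaffolds were steadier than Camk2d and Camk2g, with SDs within groups of 0.070 to 0.093. Those of Camk2a (0.039) and Camk2b (0.060) were lower still. Dlg4, which encodes PSD-95, the main organiser of the excitatory postsynaptic density, was at 11.59, 11.80 and 11.79 on 30C arrays and 11.76, 11.76 and 11.75 on 30W arrays. It was at 11.76, 11.75 and 11.83 on 1C, 11.67, 11.84 and 11.88 on 1W, and 11.75, 11.84 and 11.78 on Sal arrays. Dlg2 (PSD-93), which anchors NMDA receptors and ion channels, ranged from 11.55 on 30C replicate 1 to 11.76 on 1W replicate 3. Dlg1 (SAP97), which also takes part in receptor trafficking, ranged from 10.16 on 30C replicate 1 to 10.47 on 1C replicate 1. Dlg3 (SAP102), best known for NMDA receptor delivery in young synapses, ranged from 9.78 on Sal replicate 1 to 10.01 on Sal replicate 2. Over the 15 arrays the highest value was 1.16 times the lowest for Dlg2, 1.17 times for Dlg3, 1.22 times for Dlg4 and 1.24 times for Dlg1. The first 30C array was thus the lowest of all for Dlg1, Dlg2 and Dlg4.

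The binding partners differed from one another in spread. Dlgap1 (GKAP) was at 10.86, 10.16 and 9.93 on 30C arrays and 10.25, 10.26 and 10.24 on 30W arrays. It was at 10.17, 10.49 and 10.11 on 1C, 10.47, 10.26 and 9.99 on 1W, and 9.98, 10.41 and 10.77 on Sal arrays. Dlgap1 covered a 1.91-fold range, the widest of the 10 genes, and its SD within groups (0.31) exceeded that of 98.3% of genes, although the 30W arrays lay close together. Dlgap3 (SAPAP3), the family member enriched in striatum, whose loss in mice gives compulsive grooming, was at 9.66, 9.91 and 9.91 on 30C arrays and 9.89, 9.89 and 10.03 on 30W arrays. It was at 9.84, 9.92 and 10.08 on 1C, 9.84, 9.96 and 10.08 on 1W, and 9.79, 9.93 and 9.92 on Sal arrays. Replicate 1 of 30C was the highest array for Dlgap1 and the lowest for Dlgap3.

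**Figure D1:**
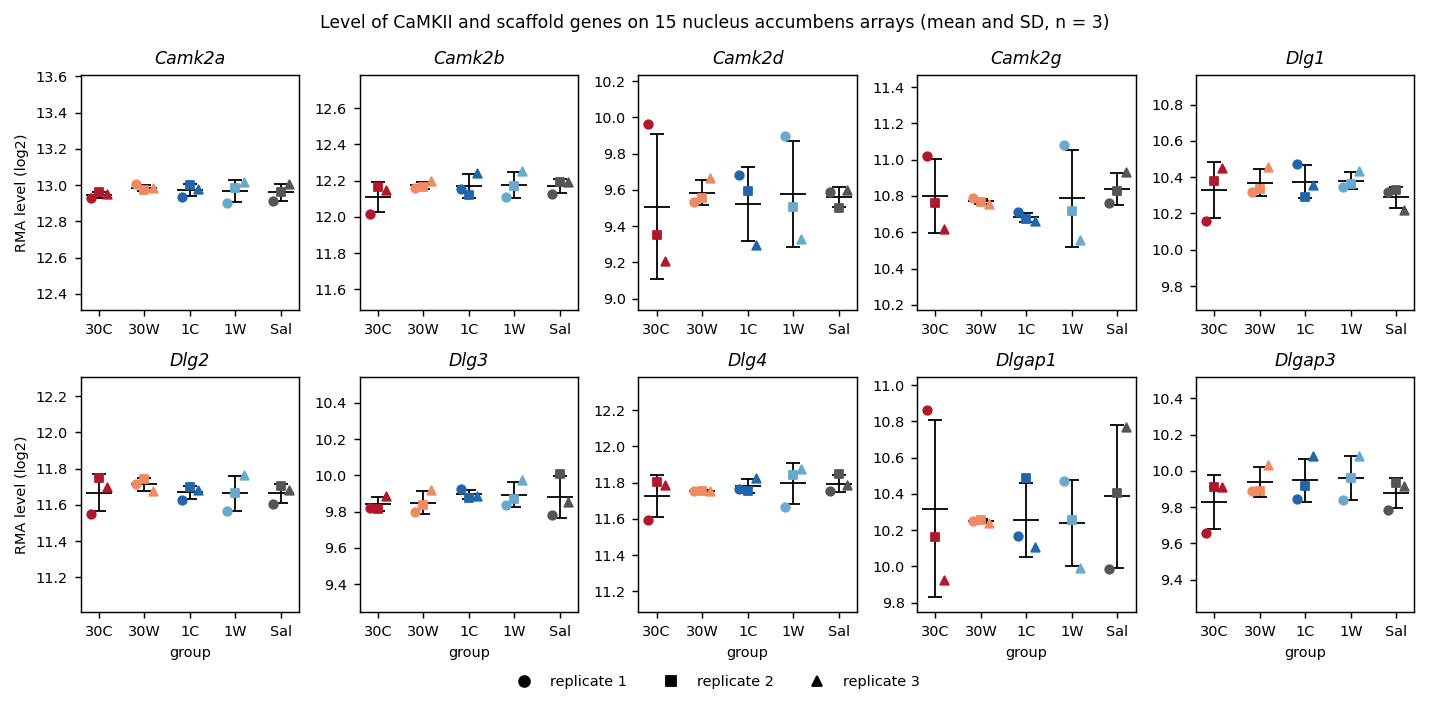
RMA level (log2, vertical axis) of each of the 10 genes on every array, by group from 30C to Sal, with marks for the 3 replicates and a bar for each group mean. Dlgap1 (9.93 to 10.86) and Camk2d (9.21 to 9.96) spread widely within 30C, while Camk2a stayed between 12.90 and 13.02.

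Differences between groups were tested for all 11778 genes in 1 limma fit over the 15 arrays, two-sided, with Benjamini-Hochberg adjustment within each comparison and a threshold of 0.05. In the 12 comparisons and the F test over the 5 groups, 0 of the 10 genes passed, and 0 of 10 had an unadjusted p under 0.05 in any of them. Few genes of any kind passed: the share was 0% of genes in every comparison except that of withdrawal length averaged over the test, where 1 gene, Cd180, passed (0.00849%). Between 357 and 1531 genes had an unadjusted p under 0.05, depending on the comparison. In limma's F test the smallest p of the 10 genes was 0.52, that of Dlgap3 (adjusted p = 0.96), followed by 0.69 for Dlg1 and 0.70 for Camk2b (adjusted p = 0.99 for both). Group membership held 2.28% of the variance over arrays for Camk2d and up to 22.7% for Dlgap3. The median of all genes was 27.8%, and 28.6% is what 5 groups hold on average with no group effect. With either marker score added to the fit as a covariate, 0 of the 10 genes passed in any comparison.

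The comparison of 30C with 30W asks what the extinction test changed after 30 days. In limma, Dlgap3 differed by -0.11 on the log2 scale (SE 0.09, 95% interval -0.30 to 0.08, adjusted p = 1.00), Camk2b by -0.065 (SE 0.054, interval -0.18 to 0.05, adjusted p = 1.00) and Camk2a by -0.040 (SE 0.043, interval -0.13 to 0.05, adjusted p = 1.00). These 3 had the smallest p-values of the 10, and they did not pass. The 3 Camk2a values of 30C all lay below the 3 of 30W, with a mean difference smaller than the SD within 1W (0.06) or Sal (0.05). Camk2a was the only one of the 10 genes whose groups did not overlap, as was the case for 8.38% of all genes in either direction. The interval for Camk2a ran from a signal change of -8.76% to one of 3.74% in 30C, and that for Dlgap1 from -24.8% to 46.4%. The median log2 change of the 10 genes was -0.040 (8 negative, 2 positive), that of all genes 0.0041. Without 30C replicate 1, the array with the lowest spiny neuron score, the log2 change was -0.026 for Dlgap3, -0.018 for Camk2b and -0.030 for Camk2a. The same step took Camk2d to -0.30, against -0.077 with all arrays, and Dlgap1 to -0.20, against 0.069, and none passed.

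After 1 day the same question is asked by 1C against 1W. In limma, Camk2g differed by -0.10 (SE 0.12, interval -0.35 to 0.14), Camk2d by -0.054 (SE 0.17, interval -0.43 to 0.32) and Dlg4 by -0.015 (SE 0.064, interval -0.15 to 0.12), each with adjusted p = 1. Camk2g and Camk2d turned to 0.044 and 0.11 without 1W replicate 1, and Camk2d to 0.060 without 1C replicate 3. Dlg4 ran from -0.079 without 1W replicate 1 to 0.025 without 1W replicate 3, and none passed. Groups overlapped for all 10 genes, whereas they did not for 7.86% of all genes. The median log2 change was -0.0065 for the 10 genes and -0.0047 for all genes. Averaged over both withdrawal times, the test gave Dlgap3 a log2 change of -0.062 (interval -0.19 to 0.07), Camk2b one of -0.036 (interval -0.12 to 0.05) and Camk2a one of -0.017 (interval -0.083 to 0.048), each with adjusted p = 1.00 in limma. Without 30C replicate 1 these were -0.019, -0.012 and -0.013, and Camk2a was at -0.0044 without 1W replicate 3. Whether the test acted differently after 30 days and after 1 day was tested as an interaction. The difference of the log2 changes was 0.13 for Camk2g (SE 0.16, interval -0.22 to 0.49), -0.098 for Dlgap3 (SE 0.12, interval -0.36 to 0.17) and -0.058 for Camk2b (SE 0.076, interval -0.22 to 0.10), each with adjusted p = 1.00. Without 30C replicate 1 these were 0.023, -0.013 and -0.011, and Camk2g was at -0.013 without 1W replicate 1.

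The comparison of 30W with 1W, both without the test, is one of withdrawal time and not of drug seeking itself. Withdrawal and the mere passing of time, age included, cannot be told apart here, since Sal has no stated withdrawal time. Here limma gave Dlg2 a log2 change of 0.048 (SE 0.060, interval -0.08 to 0.18, adjusted p = 0.83), Dlg3 one of -0.043 (SE 0.059, interval -0.17 to 0.08, adjusted p = 0.84) and Dlg4 one of -0.042 (SE 0.064, interval -0.18 to 0.10, adjusted p = 0.87). Camk2a, Camk2b and Camk2d differed by 0.019, -0.0020 and 0.0074. Without 1W replicate 1 the change of Dlg2 was 4.0e-06, that of Dlg4 -0.11, that of Camk2a -0.014 and that of Camk2d 0.17. Without 1W replicate 3 Dlg3 was at -0.0040, Dlg4 at -0.0016, Camk2b at 0.036 and Camk2d at -0.12, and none passed. The groups overlapped for all 10 genes, in a comparison where 16% of all genes had groups that did not overlap. For 30C against 1C, both tested, limma gave Dlgap3 a change of -0.12 (SE 0.087, interval -0.31 to 0.07, adjusted p = 0.92), Camk2b one of -0.060 (SE 0.054, interval -0.18 to 0.05, adjusted p = 0.94) and Camk2g one of 0.12 (SE 0.12, interval -0.13 to 0.37, adjusted p = 0.95). The groups overlapped for all 10 genes there too, against 9.69% of genes without overlap. Without 30C replicate 1 these 3 changes were -0.035, -0.013 and 0.0068, and that of Camk2d was -0.24, against -0.016 with all arrays.

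Averaged over the test, 30 days against 1 day gave Dlgap3 a log2 change of -0.072 (SE 0.061, interval -0.20 to 0.06, adjusted p = 0.64 in limma). Dlg3 differed by -0.048 (SE 0.042, interval -0.14 to 0.04, adjusted p = 0.64) and Dlg4 by -0.048 (SE 0.045, interval -0.15 to 0.05, adjusted p = 0.68). Without 30C replicate 1 Dlgap3 was at -0.029 and Dlg4 at -0.014, and without 1W replicate 3 Dlg3 was at -0.029. Day 30 and day 1 arrays also differed in their overall distribution: the 25th percentile of values was 5.53 to 5.59 on the 6 day 30 arrays and 5.48 to 5.51 on the 6 day 1 arrays, with Sal at 5.51 to 5.57. After further quantile normalization, and after median centring, 0 of the 10 genes passed in this comparison. The part of the differing distributions in these log2 changes was not itself tested. The median log2 change was -0.016 for the 10 genes and -0.018 for all genes.

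**Figure D2:**
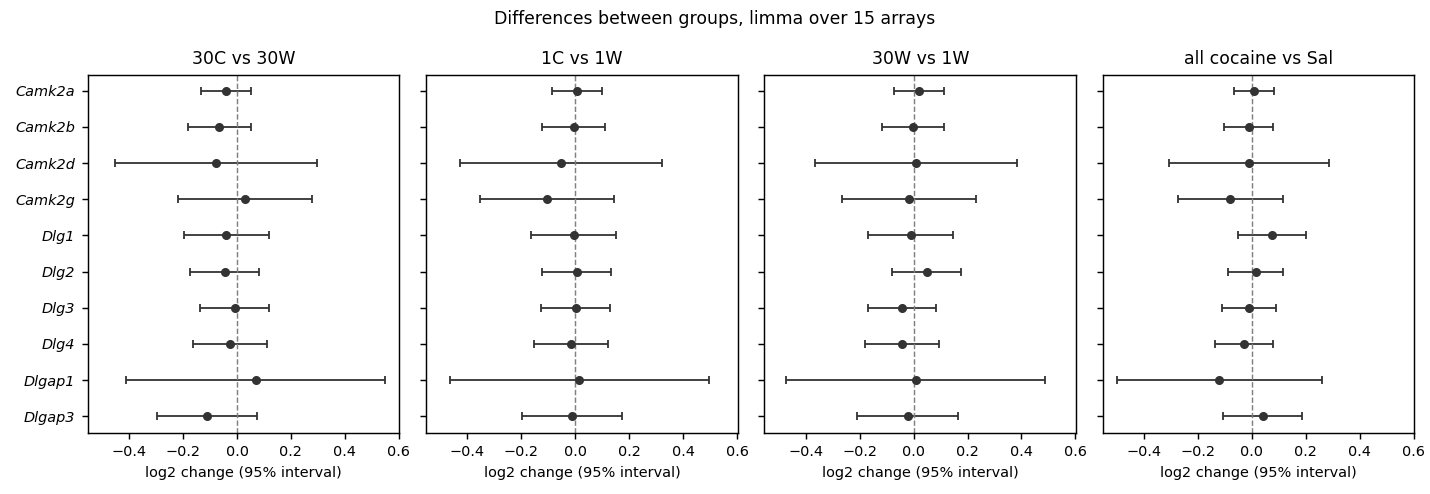
Log2 change of each gene (points) with its 95% interval (bars) from limma, in 4 panels: 30C against 30W, 1C against 1W, 30W against 1W, and all cocaine arrays against Sal. Every interval crosses 0, and the widest are those of Dlgap1 and Camk2d.

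The 4 cocaine groups were each compared with Sal, and these comparisons share the 3 Sal arrays. In 1W, the groups did not overlap for 1 of the 10 genes, against 8.09% of all genes: Dlg1 was at 10.35, 10.36 and 10.44 on 1W arrays and 10.32, 10.33 and 10.22 on Sal arrays. Its log2 change was 0.092 (SE 0.073, interval -0.07 to 0.25, adjusted p = 1.00 in limma), and next came Dlgap3 with 0.082 (SE 0.087) and Dlgap1 with -0.15 (SE 0.22), also with adjusted p = 1.00. Without Sal replicate 1 Dlgap1 was at -0.35 and Dlgap3 at 0.035, without Sal replicate 3 Dlgap1 was at 0.045 and Dlg1 at 0.058, and without 1W replicate 3 Dlgap1 was at -0.022 and Dlgap3 at 0.021. In 1C, Camk2g was the 1 gene of the 10 without overlap, against 7.18% of all genes. Its change was -0.16 (SE 0.12, interval -0.41 to 0.09), with 0.086 (SE 0.073) for Dlg1 and 0.069 (SE 0.087) for Dlgap3, each at adjusted p = 1.00 in limma. Dlg1 was at 0.037 without 1C replicate 1 and 0.052 without Sal replicate 3, and Dlgap3 was at 0.0023 without 1C replicate 3 and 0.022 without Sal replicate 1. In 30W, 0 of the 10 genes and 13.7% of all genes were without overlap. The smallest p-values were those of Dlg1 with 0.081 (SE 0.073, adjusted p = 0.87), Dlg2 with 0.048 (SE 0.060, adjusted p = 0.92) and Dlgap3 with 0.059 (SE 0.087, adjusted p = 0.94). Without 30W replicate 3 Dlg1 was at 0.038 and Dlgap3 at 0.012, without Sal replicate 3 Dlg1 was at 0.047, and without Sal replicate 1 Dlg2 was at 0.019 and Dlgap3 at 0.013. In 30C, 0 of 10 were without overlap, against 8.41% of all genes. Camk2b gave -0.060 (SE 0.054), Dlg4 -0.067 (SE 0.064) and Dlg3 -0.039 (SE 0.059), each with adjusted p = 1.00. Without 30C replicate 1 these were -0.012, 0.00062 and -0.030, and Dlg3 was at 0.025 without Sal replicate 2.

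With the 4 cocaine groups averaged, Dlg1 differed from Sal by 0.075 (SE 0.058, interval -0.05 to 0.20), Camk2g by -0.080 (SE 0.091, interval -0.28 to 0.12) and Dlgap1 by -0.12 (SE 0.18, interval -0.50 to 0.26), each with adjusted p = 1.00 in limma. Dlgap1 was at -0.32 without Sal replicate 1 and at 0.070 without Sal replicate 3, and without the same Sal replicate 3 Dlg1 was at 0.041 and Camk2g at -0.033. The intervals set what changes in array signal the spread between these samples leaves possible, and that spread may be technical. Between cocaine and Sal the interval spanned a signal change of -4.40% to 5.81% for Camk2a and -9.14% to 5.64% for Dlg4. For Camk2d it spanned -19.2% to 21.8%, and for Dlgap1 -29.3% to 19.7%. A p that misses the threshold does not show that levels were equal, and the intervals of Camk2d and Dlgap1 were the wide ones.

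Of 40 other scaffold genes of the postsynaptic density, 33 were measured and 0 rose or fell in any comparison in limma, and 0 of 23 measured calmodulin and kinase regulator genes (24 listed) did. In 30C against 30W, Lin7a, a PDZ adaptor, differed by 0.18 (SE 0.07, unadjusted p = 0.027, adjusted p = 1.00) and Nlgn3, a neuroligin, by 0.077 (SE 0.037). Shank3, the master scaffold below the Dlgap layer, differed by -0.10 (SE 0.12) and Homer1 by -0.013 (SE 0.091). Among regulators, Camkk2, a kinase of other calmodulin kinases, differed by -0.10 (SE 0.06) and Ppp1cb, a catalytic subunit of protein phosphatase 1, by -0.080 (SE 0.051). Camk2n1, an inhibitor of CaMKII, gave -0.029 (SE 0.072) and Nrgn, which holds calmodulin at low calcium, -0.0015 (SE 0.090). The median log2 change of the regulators was -0.058 (19 negative, 4 positive), against 0.0041 over all genes, of which 52.4% were positive. These comparisons share arrays. In 30W against Sal the regulators had a median of 0.034 (4 negative, 19 positive), and in 30C against Sal one of -0.0067 (12 negative, 11 positive). For the scaffolds the median in 30C against 30W was -0.0041.

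Elsewhere the list members with the smallest p were also short of the threshold. In 1C against 1W these were Magi3 (-0.14, SE 0.08) and Lin7a (0.11, SE 0.07) among scaffolds, and Camk1 (0.13, SE 0.06) and Calm2 (-0.080, SE 0.052) among regulators. In 30W against 1W they were Homer3 (0.13, SE 0.05, unadjusted p = 0.025, adjusted p = 0.44 in limma), Nlgn3 (-0.091, SE 0.037), Camk1 (0.10, SE 0.06) and Ppp1cb (0.080, SE 0.051). In 30C against 1C they were Grip2 (0.15, SE 0.07), Dlgap4 (-0.097, SE 0.052), Calm2 (0.12, SE 0.05) and Camk1 (-0.13, SE 0.06). Against Sal, 30C gave Shank2 0.088 (SE 0.052), Grip2 0.11 (SE 0.07), Camk1 -0.13 (SE 0.06) and Ppm1f 0.11 (SE 0.08). For 30W the values were 0.12 for Homer3 (SE 0.05), -0.16 for Lin7a (SE 0.07), 0.11 for Camkk2 (SE 0.06) and 0.081 for Ppp3r1 (SE 0.048). For 1C they were -0.090 for Magi1 (SE 0.078), -0.090 for Magi3 (SE 0.080), -0.091 for Calm2 (SE 0.052) and 0.084 for Ppp1cc (SE 0.065). For 1W they were -0.081 for Lin7a (SE 0.074), -0.042 for Dynll1 (SE 0.039), -0.14 for Camk1 (SE 0.06) and 0.092 for Ppp1cc (SE 0.065). Across these comparisons Shank3 stayed between -0.11 and 0.038, Homer1 between 0.027 and 0.13, Camk2n1 between -0.086 and 0.042, and Nrgn between -0.11 and 0.069.

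Within groups, 5 of the 10 genes moved with the spiny neuron markers of the array and 1 with the cortical markers. A slope of each gene on the spiny neuron score was fitted in limma with the 5 groups as a term, over 11764 genes outside the marker list, so that it uses only differences between arrays of the same group. Of the 10 genes, 5 passed, where 7.28% of all genes passed in either direction (3.88% higher with the score, 3.4% lower). Camk2d fell with the score by 1.10 log2 units per unit of score (SE 0.14, adjusted p = 0.00061), Camk2g by 0.69 (SE 0.11, adjusted p = 0.0037) and Dlgap1 by 1.19 (SE 0.28, adjusted p = 0.022). Dlg4 rose with it by 0.36 (SE 0.07, adjusted p = 0.0086) and Dlgap3 by 0.47 (SE 0.10, adjusted p = 0.015). The slopes of Camk2b (0.25, SE 0.07, adjusted p = 0.063), Dlg2 (0.28, SE 0.08, adjusted p = 0.064), Dlg1 (0.32, SE 0.11, adjusted p = 0.10), Dlg3 (0.17, SE 0.10, adjusted p = 0.41) and Camk2a (0.096, SE 0.077, adjusted p = 0.54) did not pass. In bulk RNA, fewer cells of a type and less RNA per cell cannot be told apart.

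**Figure D3:**
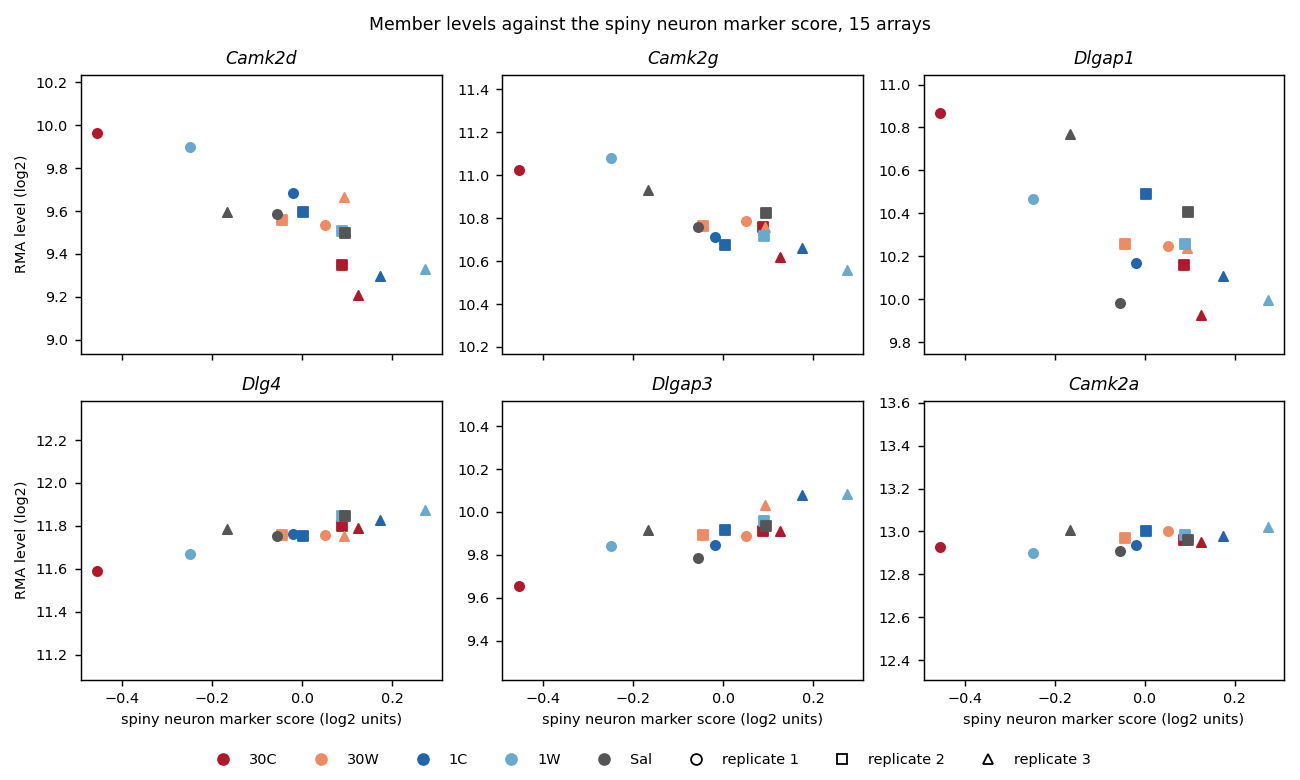
RMA level (log2, vertical axis) against the spiny neuron score (log2 units, horizontal axis) for the 5 genes whose slope passed and for Camk2a, with 1 point per array, colour for the group and shape for the replicate. The 30C array at -0.46 and the 1W array at -0.25 lie far to the left, with Camk2d at 9.96 and 9.90 there.

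These slopes rested on few arrays. Leaving out each array in turn, Camk2d (-1.15 to -0.99) and Camk2g (-0.78 to -0.54) passed in 15 of 15 fits. Dlg4 passed in 13 of 15 (0.32 to 0.38) and was lost without 1W replicate 1 (adjusted p = 0.066) or 30C replicate 1 (adjusted p = 0.11). Dlgap3 passed in 12 of 15 (0.44 to 0.52) and was lost without 1W replicate 1 (adjusted p = 0.064), 1W replicate 3 (adjusted p = 0.058) or 30C replicate 1 (adjusted p = 0.15). Dlgap1 passed in 11 of 15 (-1.36 to -0.92) and was lost without 1W replicate 1 (adjusted p = 0.055), 1W replicate 3 (adjusted p = 0.061), 30C replicate 1 (adjusted p = 0.31) or 30C replicate 3 (adjusted p = 0.075). Without both arrays farthest from the median score, the first replicates of 30C and 1W, 0 of the 10 and 0 of all genes passed in limma, with 2 and 1057 at an unadjusted p under 0.05. The slopes then were -0.81 for Camk2d (adjusted p = 0.49), -0.40 for Camk2g (0.61), -1.09 for Dlgap1 (0.64), 0.23 for Dlg4 (0.68) and 0.58 for Dlgap3 (0.52), with signs as before. That last fit was added after the data were seen. Other cell type scores, computed in the same way, were also extreme on these 2 arrays. Replicate 1 of 1W had the highest oligodendrocyte (0.225) and microglia (0.21) scores, and replicate 1 of 30C the lowest endothelial and mural score (-0.19). Slopes on those scores were not tested.

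On the cortical score, with 11767 genes tested, 1 of the 10 genes passed in limma, against 5.4% of all genes (3.85% higher, 1.56% lower). Dlgap1 rose by 0.49 log2 units per unit of score (SE 0.06, adjusted p = 0.00025), and passed in 15 of 15 fits that left out 1 array (0.42 to 0.61). Without the 2 farthest arrays, Sal replicate 1 and 30C replicate 1, the slope of Dlgap1 was 0.54 with adjusted p = 0.11. Dlg1 (-0.11, SE 0.04, adjusted p = 0.11), Camk2g (0.17, SE 0.06, adjusted p = 0.16) and Camk2d (0.20, SE 0.10, adjusted p = 0.35) did not pass, and Camk2a had 0.018 (SE 0.029, adjusted p = 0.82). The 2 scores were themselves related over the 15 arrays (Pearson r = -0.49, Spearman rho = -0.35, a description). With both in 1 limma fit, the slope on the spiny neuron score was -1.10 for Camk2d (adjusted p = 0.0024), -0.60 for Camk2g (0.016), -0.64 for Dlgap1 (0.0041), 0.40 for Dlg4 (0.014) and 0.57 for Dlgap3 (0.0090). The slope of Dlgap1 on the cortical score was 0.38 (adjusted p = 7.35e-05) in that fit. Camk2d then had a cortical slope of 0.0011. The fit of both scores was not repeated with arrays left out, and its share of all genes passing is not given here. Replicate 1 of 30C was the lowest array on the spiny neuron score and the highest on the cortical score.

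**Figure D4:**
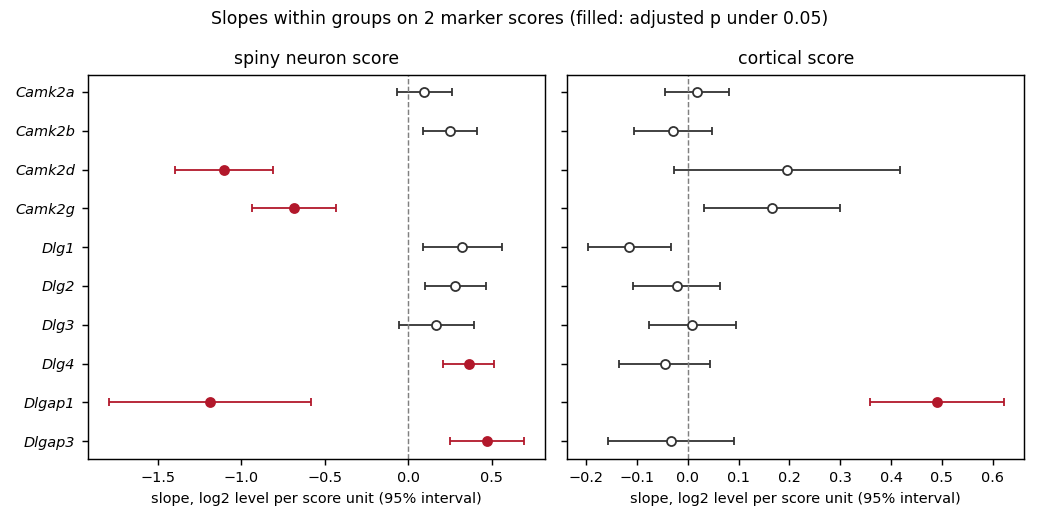
Slope of each gene (log2 level per unit of score, points) with its 95% interval (bars) on the spiny neuron score, left, and on the cortical score, right, where filled points passed at an adjusted p under 0.05 in limma. Camk2d, Camk2g and Dlgap1 lie left of 0 and Dlg4 and Dlgap3 right of 0 on the spiny neuron score, and Dlgap1 alone is filled on the cortical score.

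The promoters of the 5 genes whose slope on the spiny neuron score passed are shown here as a description. A relation between promoter sequence and slope was not tested. The windows are the 150 bases before the annotated start, on the gene's strand, from RefSeq on build GRCr8. A window was found for 9 of the 10 genes, and for 2 starts of Dlgap1. Capitals mark matches on either strand to 6 motifs: the GC box GGGCGG, the TATA box TATAAA, the CCAAT box CCAAT, the cAMP response element TGACGTCA, the AP-1 site TGANTCA and the E-box CACGTG.
Camk2d chr2:217698401-217698550 (+): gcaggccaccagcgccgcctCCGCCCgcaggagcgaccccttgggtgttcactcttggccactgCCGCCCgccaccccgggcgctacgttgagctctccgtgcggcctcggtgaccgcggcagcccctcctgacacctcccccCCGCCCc
Camk2g chr15:3553206-3553355 (+): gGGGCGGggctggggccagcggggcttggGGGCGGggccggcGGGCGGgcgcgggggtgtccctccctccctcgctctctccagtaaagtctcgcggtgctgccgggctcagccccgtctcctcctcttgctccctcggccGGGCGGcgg
Dlgap1, first start, chr9:117613934-117614083 (+): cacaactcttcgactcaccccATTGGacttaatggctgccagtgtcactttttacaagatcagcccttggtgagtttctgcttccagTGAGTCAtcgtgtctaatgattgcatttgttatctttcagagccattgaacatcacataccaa
Dlgap1, second start, chr9:117864308-117864457 (+): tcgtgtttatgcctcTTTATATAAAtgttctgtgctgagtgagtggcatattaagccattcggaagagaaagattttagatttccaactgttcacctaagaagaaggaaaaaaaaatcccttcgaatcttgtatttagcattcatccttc
Dlg4 chr10:55239634-55239783 (+): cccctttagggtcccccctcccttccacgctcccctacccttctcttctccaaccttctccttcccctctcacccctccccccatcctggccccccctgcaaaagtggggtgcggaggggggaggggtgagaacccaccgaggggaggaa
Dlgap3 chr5:144800115-144800264 (+): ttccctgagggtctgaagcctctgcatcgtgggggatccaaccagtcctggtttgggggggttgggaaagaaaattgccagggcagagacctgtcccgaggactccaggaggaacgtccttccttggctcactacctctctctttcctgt

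Camk2d held 3 GC boxes (130, 86 and 7 bases before the start) and Camk2g 4 (149, 121, 108 and 9 bases before), where 26% of 33465 windows held at least 1. Their windows were 76% and 79.3% G or C, against a median of 52.7%. Dlgap1 held a CCAAT box (129 bases before its first start, in 23.5% of all windows) and an AP-1 site (63 bases before, in 3.69%). At its second start, 2 TATA box matches on opposite strands overlapped (135 and 131 bases before, in 8% of windows), and the windows were 43.3% and 35.3% G or C. Dlg4 (66.7% G or C) and Dlgap3 (57.3%) held none of the 6 motifs in this window. Among the genes whose slope did not pass, Camk2b (82% G or C) held 2 GC boxes, and its slope was positive. Dlg1 held a CCAAT box and an E-box, Dlg2 a CCAAT box, and Camk2a none of the motifs. The cAMP response element was in 1.36% and the E-box in 3.74% of all windows. A match is a description of letters and not a site in use.

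Over the 15 arrays some pairs of the 10 genes ran together and others ran in opposite directions, given as a description since pairs share arrays and their cell makeup. Pearson's r was 0.92 for Camk2b with Dlgap3, 0.87 for Camk2b with Dlg4, 0.80 for Camk2d with Camk2g and 0.77 for Camk2g with Dlgap1. It was -0.83 for Camk2d with Dlg4, -0.80 for Dlg1 with Dlgap1 and -0.77 for Camk2d with Dlg2. Spearman's rho was smaller in size for these pairs: in the same order 0.84, 0.70, 0.59, 0.69, -0.80, -0.66 and -0.71. Among all genes that passed the filter, the 3 most like Camk2g were Kcnc2, a potassium channel of fast-spiking neurons (0.97), Ankrd34c (0.92) and Sncb (beta-synuclein, 0.92). Those most like Camk2d were Stmn3, Agpat4 and Rnf130 (0.93 each). Dlgap1 was most like Clstn2, Dock9 and Gabbr2 (0.98 each), of which Gabbr2 encodes a GABA-B receptor subunit. Dlg4 was most like Fbxl16 (0.96), Sh2b3 (0.95) and Dgat2 (0.94), and Dlgap3 like Scn4b, a sodium channel subunit (0.94), Acvr1c (0.93) and Syndig1l (0.93). For Camk2b the 3 were Dlgap3 (0.92), Tomm70 (0.90) and Syndig1l (0.90), and for Camk2a they were Cnksr2 (0.90), Rasgrp1 (0.89) and Agap2 (0.87). Dlg1 was most like Dcc (0.92), Ptpre (0.90) and Spem1 (0.88). Dlg2 was most like Lmo7, Ngef and Lrrc7 (0.92 each), and Dlg3 like Ube2f (0.91), Otud5 (0.89) and Ncan (0.88).

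The other scaffolds also split on the spiny neuron score. In limma 7 of 33 rose with it, 4 fell and 22 did not pass, where 3.88% of all genes rose and 3.4% fell, with a median slope of 0.076 against -0.0015 over all genes. Those that rose were Actn2, an actinin that binds CaMKII (1.04, adjusted p = 0.00085), the kinase anchor Akap5 (0.79), Shank3 (0.72), Lrrc7 (densin-180, 0.68), Begain (0.45), Sipa1l1 (0.45) and Baiap2 (0.41). Those that fell were Shank1 (-0.69, adjusted p = 0.022), Homer2 (-0.47), Magi1 (-0.44) and Magi3 (-0.43). Shank1 was also the 1 scaffold of the 33 to pass on the cortical score (0.26, SE 0.05, adjusted p = 0.0039), where 5.4% of all genes passed. Slopes of opposite sign thus stood side by side within families, Shank3 with Shank1 and Dlgap3 with Dlgap1. With both arrays farthest from the median score left out, 0 of all genes passed.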

How the data were processed

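Microarray values of 15 nucleus accumbens samples were used. The deposited table holds log2 intensities that the authors obtained by RMA, according to the submitters' processing notes, per the labels. Software, version and filters: not given in the sources used here. RMA corrects background, quantile-normalizes arrays and summarises probes. The protocol in the labels cites a 3' labelling kit, whereas probe set identifiers belong to a whole-transcript design. Of 28826 probe sets, 15209 had 1 symbol, 306 several and 13311 were unnamed here. A gene took its probe set of highest mean over the 15 arrays, and was kept where that lay above the array's 30th percentile on at least 3 arrays. All 10 members matched RefSeq (GRCr8) by Entrez ID with the same symbol.

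Groups came from the labels. One limma 3.58.1 model (R 4.3.3, lmFit and eBayes, 10 residual and 3.44 prior degrees of freedom) held the 5 groups as its term. Slopes added a marker score and dropped that list's markers. P-values are two-sided and adjusted by Benjamini-Hochberg over all genes tested, and the number of arrays limits the precision. An exact test of 3 against 3 arrays cannot go below 0.1, so none was used. The fit was tested on simulated data. The members, marker lists and other lists were chosen with earlier results of these data known. The rule for named genes took all members, statistics for the 3 of smallest p in each comparison, the 3 most like genes of each, and 2 genes of each other list in each comparison of 2 groups, with Shank3, Homer1, Camk2n1 and Nrgn always. The proteins were not analysed here. Alternatives changed the filter, probe set, normalization, variance model, weights, arrays, covariates, block and threshold.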

Additional observations from a re-analysis of the deposited data

How the results depend on the processing

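In 30 alternatives, 15 of which left out 1 array, 0 of 3350 values of the 10 genes in group comparisons passed the threshold. The smallest adjusted p was 0.43, 5 values had an unadjusted p under 0.05, and 283 changed sign while not called. Of 540 slopes of these genes under alternatives 162 passed, 13 on the cortical score changed sign while not called, and 0 called slopes reversed. In the fits reported, 7.28% of all genes passed on the spiny neuron score and 5.4% on the cortical score. Leaving out 1 array changed the sign of 84 of the 120 values of these genes in group comparisons.

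The gene counts past the threshold moved as follows, and the cause was not tested. For withdrawal length averaged over the test, with 1 gene in the fit reported, there were 2 under a 50th percentile filter, 4 after further quantile normalization, 0 after median centring, 6 with array weights, 0 with only the arrays compared, 0 with the spiny neuron score as covariate and 5 at a threshold of 0.10. Leaving out arrays gave 0 to 3. For 30C against 30W, with 0 reported, there was 1 with array weights, 1 with the cortical score as covariate and 1 at a threshold of 0.10 (0 to 1 without single arrays). Array weights gave 3 for 30W against 1W (0 to 1 without single arrays) and 2 for 30C against 1C. The cortical covariate gave 1 for 30C against 1C (0 to 2 without single arrays), 2 for the averaged extinction test and 1 for the F test (0 to 2). For 1C against 1W and 1C against Sal single arrays left out gave 0 to 1.

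For slopes on the spiny neuron score, 548 genes passed with the replicate block, 1289 at a threshold of 0.10 and 0 without the 2 farthest arrays, against 856 reported (213 to 1088 without single arrays). Of the 10 genes 8 passed after median centring, 3 with the replicate block and 0 without the 2 farthest arrays, against 5 (2 to 7 without single arrays). Under any alternative at most 1289 of all genes passed, where 11764 were tested in the fit reported. On the cortical score 70 genes passed without the 2 farthest arrays (345 to 702 without single arrays), and of the 10 genes 0, with 2 under the replicate block (1 to 2 without single arrays). Over all genes 636 of 11767 passed in the fit reported on that score, and at most 914 under any alternative. The replicate numbers gave no sign of pairing the arrays. Across groups, the median correlation of deviations was -0.0096 for same-number pairs and -0.0070 for pairs of other numbers. Of 30 same-number pairs, 10 were over 0.1 (range -0.63 to 0.51), and 6 of 15 arrays correlated best with their own number. In the block fit the spiny slopes of Dlg4 (0.32, adjusted p = 0.092) and Dlgap3 (0.27, adjusted p = 0.16) did not pass and Camk2g passed on the cortical score (0.18, adjusted p = 0.048, limma). The lowest probe set of a gene or the mean of its probe sets was tried over all genes, though the 10 had 1 each, and the fit on only the arrays compared was not run for all cocaine against Sal and the F test.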

Other observations

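Calmodulin and kinase regulators also had slopes on the spiny neuron score. In limma, 3 of 23 rose with it, 2 fell and 18 did not pass, where 3.88% of all genes rose and 3.4% fell. Ppp3ca, a catalytic subunit of calcineurin, rose by 0.49 per unit of score (SE 0.08, adjusted p = 0.0024) and Camk1d by 0.60 (SE 0.11, adjusted p = 0.0056). Ppp1ca, a catalytic subunit of protein phosphatase 1, rose by 0.38 (SE 0.10, adjusted p = 0.037). Camk2n2, an inhibitor of CaMKII, fell by 0.89 (SE 0.11, adjusted p = 0.00061), and Ppm1e, a phosphatase that acts on calmodulin kinases, fell by 1.36 (SE 0.33, adjusted p = 0.027). On the cortical score Ppm1e was the 1 regulator that passed, with 0.53 (SE 0.09, adjusted p = 0.0025), where 5.4% of all genes passed. Without the 2 arrays farthest from the median spiny neuron score, 0 of all genes passed on that score.

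Under alternatives, 5 values of the 10 genes in group comparisons reached an unadjusted p under 0.05 in limma, and none passed after adjustment. With the spiny neuron score as covariate, Camk2d differed by -0.20 in 30C against 30W (adjusted p = 0.92), by -0.16 in 30C against 1C (adjusted p = 0.75) and by -0.12 for the averaged test (adjusted p = 0.77). Camk2g in 1C against Sal, with only the arrays compared, differed by -0.16 (adjusted p = 1.00). Dlgap3 in 30C against 1C, with the replicate block, differed by -0.12 (adjusted p = 0.84).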
